A study of Mus musculus with 15 samples.

Results

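Gm14326, Gm14391, Gm14435 and Gm14440 are 4 predicted genes of a cluster of zinc finger genes on mouse chromosome 2. The liver arrays carried 8 probes for them, out of 55681 probes and 36406 gene names that are not controls, and the probes were taken by the gene name that the scanner files give. Gm14326 had 5 probes and each of the others had 1, and every probe was printed as 1 spot per array. By the positions in the files (mm9), the probe of Gm14435 lies at chr2:175108805-175108864, that of Gm14440 at chr2:175110368-175110427, that of Gm14391 at chr2:175880321-175880380, and the 5 of Gm14326 between chr2:177677363 and chr2:177680714. The 4 genes were chosen by their intensities in earlier results of these same arrays, in which they had differed between the groups. Their differences between groups are therefore a description. Where a count of member calls is printed, it stands only beside the share of all probes, and nothing is read from it. Tests are used for the tracking of the probes from liver to liver and for the other probes of the region.

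RNA came from whole livers of male CD1 mice of 3 groups. The controls (C) had saline and an empty plasmid. Diethylnitrosamine (DEN), a liver carcinogen, was given to the mice of groups T and G, of which T then had the empty plasmid and G a plasmid that carries Gas1. All 3 groups had hydrodynamic gene delivery (HGD), in which 50 µg of plasmid is pushed into the liver by a fast tail vein injection. Gas1 was driven by the CAG promoter, and HGD reaches only part of the liver cells, mostly near blood vessels, so the RNA of a G liver mixes transfected and other cells, and that of any DEN liver may mix tumour and other tissue. The sample labels and the study's methods give different ages for the mice and different RNA extractions, and neither could be settled here. The arrays numbered 4 in C, 5 in T and 6 in G. Arrays 3 and 4 of group C share an RNA code, as do arrays 4 and 5 of group T, and each pair was averaged, which left 3, 4 and 6 livers. The averaged livers are called C3 and T4 below.

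The name of these genes hides what they encode. KRAB zinc finger proteins bind DNA through a row of C2H2 fingers, short loops held by zinc, and carry at the other end a KRAB box that recruits the corepressor Trim28 and, through it, enzymes that silence chromatin. They form one of the largest families of mammalian transcription factors, many of them silence transposable elements, and new members arise by duplication, so that neighbours in a cluster are often near copies. In RefSeq (GRCm38.p6) Gm14326, Gm14391 and Gm14440 are protein coding genes, while Gm14435 is now called Zfp968-ps and is a pseudogene. Probe and gene positions come from different builds and do not all match. RefSeq has Gm14391 at chr2:175185165-175206924 on the minus strand, while its probe is placed on the plus strand in mm9.

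Near copies matter here because a probe of 60 bases can take up RNA of several of them. Of the following 4 probes, the first 3 carry a run of letters in common. The Gm14435 probe is shown beside them because it shares little. Capitals mark the longest run that a probe has in common with any other member probe.
Gm14326 A_55_P1996087: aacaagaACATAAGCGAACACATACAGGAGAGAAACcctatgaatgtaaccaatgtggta
Gm14326 A_55_P1996086: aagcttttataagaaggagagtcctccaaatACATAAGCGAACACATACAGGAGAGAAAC
Gm14391 A_55_P1956807: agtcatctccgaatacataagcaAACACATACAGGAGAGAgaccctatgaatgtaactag
Gm14435 A_55_P1995737: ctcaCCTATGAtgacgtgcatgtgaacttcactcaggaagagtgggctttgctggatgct
The first 2 probes of the list sit side by side on the genome and share 29 bases, and the Gm14391 probe shares 17 bases with the first of them. The letters that these 3 probes share are those of the linker that joins 1 finger to the next and that is conserved between C2H2 proteins. The longest run common to the first 3 probes of the list is AACACATACAGGAGAGA. It stood in 8 of all 55681 probes (0.014%), and in none as its reverse complement. Of these 8, 3 were the member probes shown and the other 5 all lay in the same region of chromosome 2. The run was chosen after the probes had been read. The probe of Gm14435 lies near the start of its transcript (position 80) and shares no more than 7 bases with another member probe. Over the 28 pairs of member probes the longest shared run was between 4 and 29 bases.

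The files themselves list up to 4 transcripts for each probe, of which some matched a RefSeq symbol. For the probe A_55_P1996086 these name Gm14308, Gm14391 and Gm6710 beside Gm14326. For A_55_P1955715 they name Gm6710, for A_55_P2065334 Gm14434 and Gm2026, and for A_51_P283292 Gm14434. The probe of Gm14440 is also listed for Gm14288. The only listed transcript of the Gm14435 probe that matched RefSeq was that of Zfp971. Some of the other transcripts have a probe of their own in the region. That of OTTMUSG00000016609 is listed for A_55_P1955715 and A_51_P283292, and ENSMUST00000109061 for A_55_P1996087 and the Gm14391 probe. A value of such a probe is therefore the summed signal of the transcripts that bind it, and which of them gave it cannot be told apart. In whole liver RNA, fewer cells of a type and less RNA per cell cannot be told apart either.

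Between 15707 and 29765 spots per array were well above background, and no spot was saturated. Of the probes of Gas1, 3 in number, none was higher in the livers labelled G than in T beyond the spread (log2 differences between -0.13 and 0.29, adjusted p in limma between 0.45 and 0.922). Whether these probes lie in the part of Gas1 that the plasmid carried is not given in the sources used here. The 8 probes of the hepatocyte markers were above background on all 15 arrays, while 3 of the 4 germ cell probes were above it on none. Over all probes, limma called 697 in T against C at an adjusted p under 0.05 (331 higher and 366 lower in T), 23 in G against T and 68 in G against C. With arrays scaled by their median instead of by quantiles, the call was 3049 higher and 22 lower for T against C.

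The group mean of Gm14326 was lower in C than in either DEN group at each of its 5 probes, though at some of them single C and T livers overlapped. The largest difference was that of A_55_P1955715, on the log2 intensity scale used throughout. It read 7.44, 7.47 and 7.67 in the C livers and 8.74, 8.48, 9.06 and 9.55 in the T livers. The G livers lay between 8.68 and 9.63, with a median of 9.24. Every DEN liver was above every C liver, while T and G overlapped. The mean was 7.52 ± 0.12 in C (SD, n = 3), 8.96 ± 0.46 in T (n = 4) and 9.19 ± 0.34 in G (n = 6), so T was 2.70-fold and G 3.17-fold above C, and G minus T was 0.23 on the log2 scale (SE 0.20).

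The probe A_55_P1996087, which holds the linker letters, gave the same order with a larger step from T to G. The C livers read 8.92, 9.26 and 9.0, the T livers 9.60, 9.64, 9.98 and 10.30, and the G livers from 10.06 to 11.27 with a median of 10.35. Again all DEN livers exceeded all C livers. The log2 difference was 0.82 for T minus C (SE 0.24), 0.58 for G minus T (SE 0.20) and 1.40 for G minus C (SE 0.22).

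The other 3 probes of Gm14326 were near the background and moved less. A_55_P1996086 read 6.44, 6.64 and 6.43 in C, 6.56, 6.49, 6.80 and 6.88 in T, and 6.82 to 7.39 in G with a median of 6.91, and was well above background on 14 arrays. A_55_P2065334 read 6.29, 6.55 and 6.35 in C, 6.75, 6.22, 6.77 and 6.96 in T, and 6.77 to 7.57 in G with a median of 7.0 (12 arrays). A_51_P283292 read 6.54, 5.93 and 6.40 in C, 6.57, 6.50, 6.85 and 7.08 in T, and 6.70 to 7.11 in G with a median of 6.91 (14 arrays). At each of the 3 probes C and T overlapped, and all G livers were above all C livers. Their G minus C differences were 0.48 (SE 0.12), 0.70 (SE 0.18) and 0.62 (SE 0.16) on the log2 scale. The 5 probes of this 1 gene thus differed in the size of the change from 0.48 to 1.66, and the 3 smallest were those that fell below the detection call on some arrays.

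Gm14391 read 7.77, 7.79 and 7.51 in the C livers and 8.0, 7.91, 8.46 and 8.54 in the T livers. The G livers lay between 8.50 and 9.44 with a median of 8.70. The lowest T liver was just above the highest C liver, and 5 of the 6 G livers were above all T livers. The log2 difference was 0.54 for T minus C (SE 0.21), 0.56 for G minus T (SE 0.18) and 1.10 for G minus C (SE 0.19). One spot of this probe was left out as an outlier on an array of group T.

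Gm14435 and Gm14440, whose probes lie closest to each other among the different genes by their mm9 positions, changed by almost the same amount. RefSeq (GRCm38.p6) places Gm14435, as Zfp968-ps, at chr2:176423637-176433084 and Gm14440 at chr2:175275125-175286805. The closeness is therefore that of the probe positions and not of the 2 genes in RefSeq. The Gm14435 probe read 9.06, 8.67 and 8.76 in C and 9.44, 9.20, 9.61 and 9.80 in T, and 9.41 to 10.29 in G with a median of 9.74. The Gm14440 probe read 7.21, 7.20 and 6.99 in C and 7.46, 7.72, 7.96 and 8.20 in T, and 7.84 to 8.58 in G with a median of 8.04. For both, all DEN livers were above all C livers and T and G overlapped. T minus C was 0.69 (SE 0.18) for Gm14435 and 0.70 (SE 0.18) for Gm14440 on the log2 scale, and G minus C was 0.96 (SE 0.17 and 0.16). The level of 1 probe cannot be set against that of another, but these differences are each within 1 probe.

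**Figure D1:**
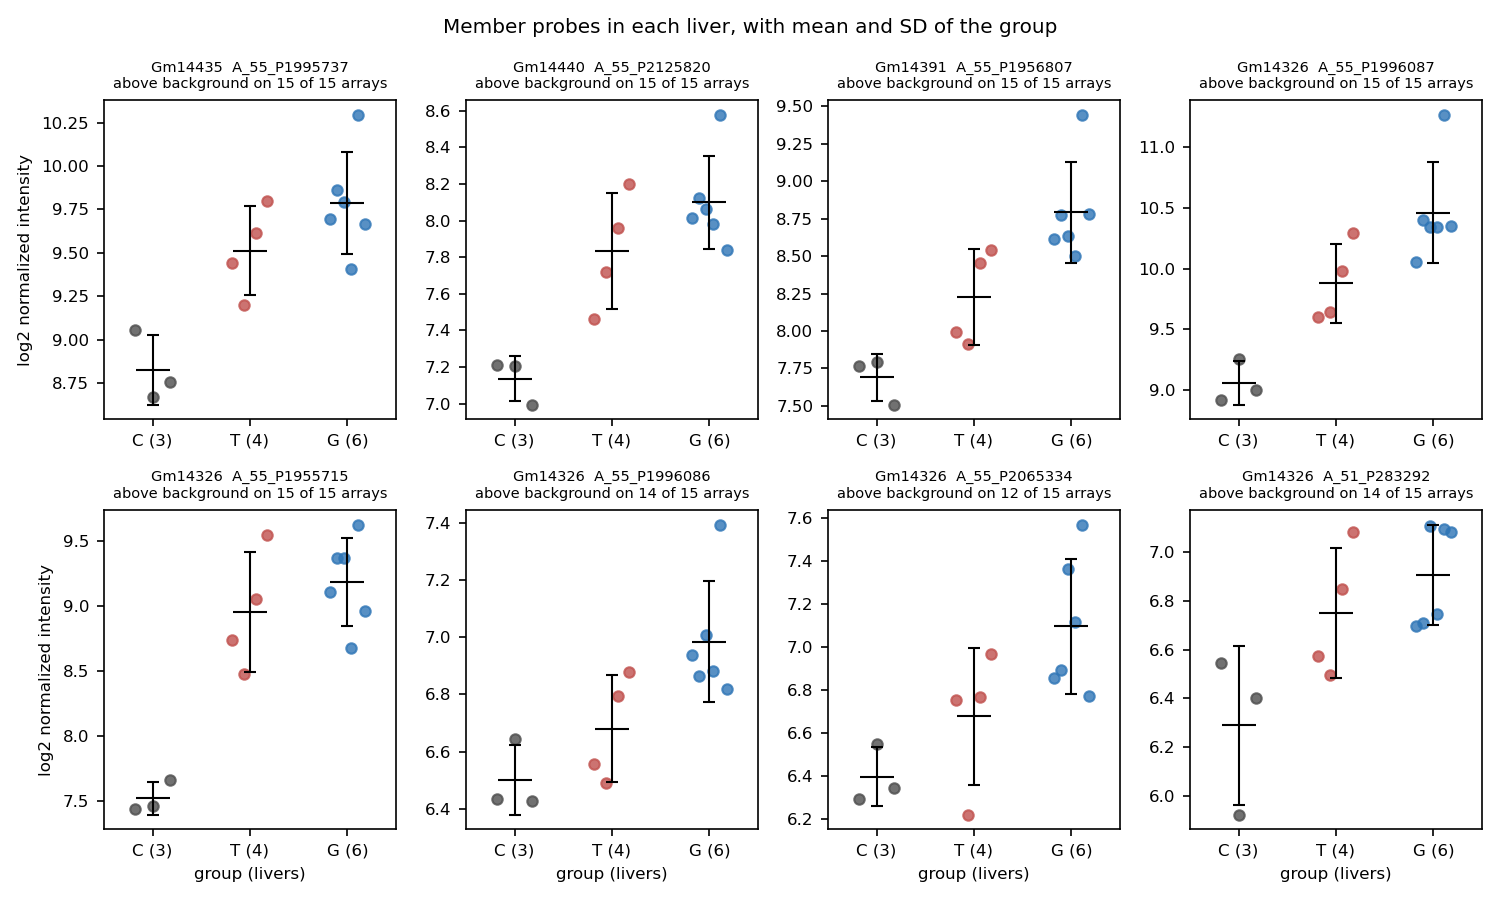
Log2 normalized intensity of the 8 member probes in each of the 13 livers, by group (C saline and empty plasmid, T DEN and empty plasmid, G DEN and Gas1 plasmid). Points are livers and the black bars the mean ± SD. At 5 probes all T livers lie above all C livers, and at all 8 probes all G livers do.

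Over the 8 probes, T was above C at each of them, with a median log2 difference of 0.61 (0.18 to 1.43), beside a median of 0.0018 over all 55681 probes. This median was 1.21 with median scaling and 1.00 with Agilent's processed signal. In limma 1 of the 8 passed an adjusted p of 0.05, beside 1.25% of all probes. At 5 of the 8 all T livers were above all C livers, beside 8.7% of the 50171 probes with a value in every liver. G was above C at all 8, with a median of 0.96 (0.48 to 1.66) beside -0.0047 over all probes, and a median of 1.57 and 1.49 with these 2 settings. Of the 8, 3 passed (0.122% of all probes), and at 8 of 8 the G livers were above all C livers (2.19% of all probes). Since these comparisons may have chosen the genes, nothing is read from these counts.

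The group means of the members in G were not nearer to C than those in T. G minus T was above 0 at all 8 probes, with a median of 0.29 (0.16 to 0.58) beside -0.0060 over all probes. None of the 8 passed in limma (0.0413% of all probes did). At an unadjusted p under 0.05 there were 4 of the 8, beside 5010 of all 55681 probes, from which nothing is read. At none were all G livers above all T livers (0.855% of all probes). The 2 largest steps from T to G were those of A_55_P1996087 and of the Gm14391 probe, and the smallest that of A_51_P283292.

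**Figure D2:**
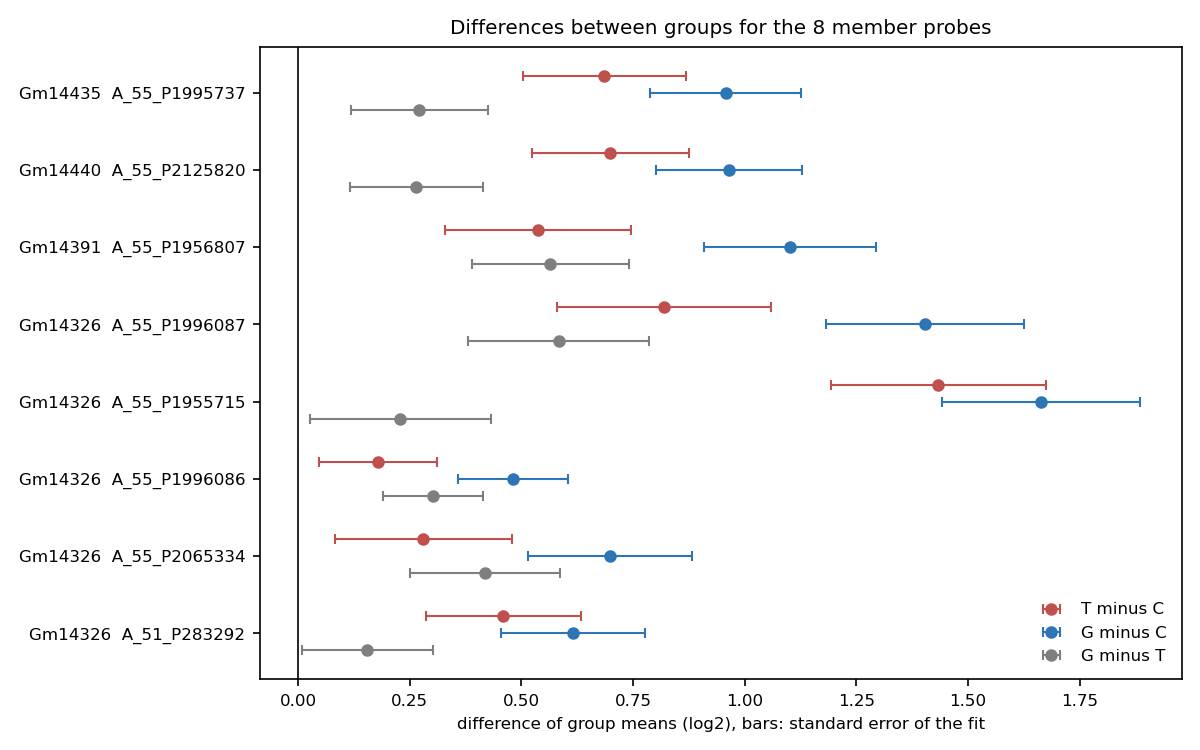
Differences of group means on the log2 scale for the 8 member probes. Points are T minus C (red), G minus C (blue) and G minus T (grey), and the bars are ± 1 SE of the limma fit over 13 livers. All 24 points lie above 0, and the G minus T points lie between 0.16 and 0.58.

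The livers of a group were not alike. As the median over the 8 probes of the log2 difference from the C mean, the T livers stood at 0.34, 0.30, 0.78 and 0.91, and the G livers at 0.77 to 1.45 with liver G5 on top. The C livers lay between -0.065 and 0.085. The upper T livers, T3 and T4, thus reached the lower part of group G, while T1 and T2 stood between C and G. Liver T4 was the highest T liver at all 8 probes. Liver G5 was the highest of all livers at 7 of 8 probes, and its array also had the most spots flagged as outliers (3692, against 218 to 1625 on the arrays of group C). No spot of a member probe was flagged on that array. The part of the array's quality in the result was not tested. Without G5, the median G minus C difference was 0.86 and the median G minus T difference 0.20.

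**Figure D3:**
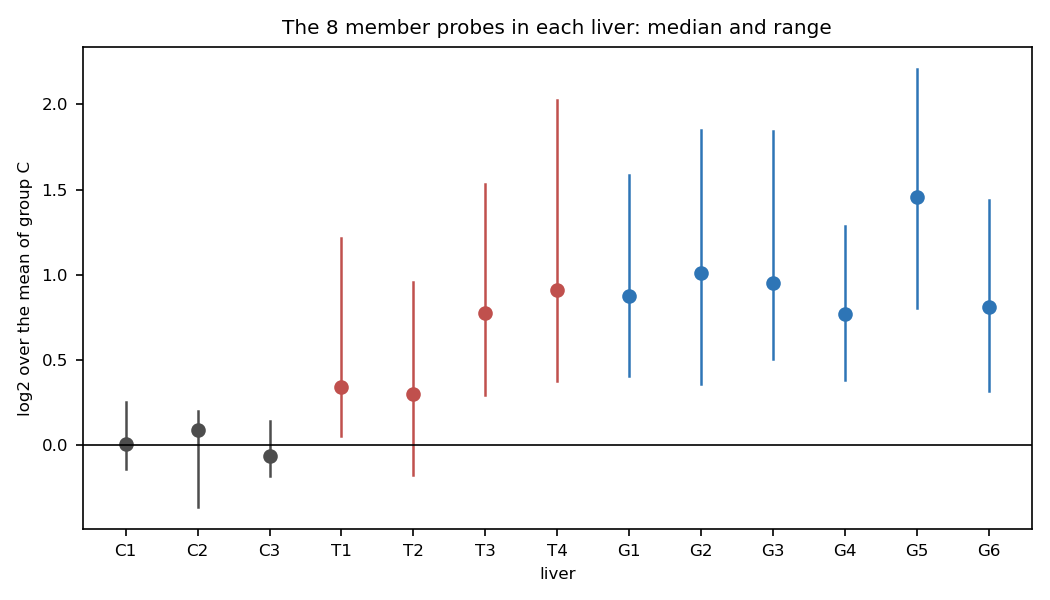
Log2 difference of each liver from the mean of group C over the 8 member probes, as the median (point) and the range (line). The C livers lie near 0, the T livers at 0.30 to 0.91, and the G livers at 0.77 to 1.45, with G5 the highest.

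The arrays were on 2 slides, which also differ in scan and which each held all 3 groups. The median T minus C difference was 0.73 on slide 1 and 0.70 on slide 2, and that of G minus C was 0.88 and 1.09, and all 8 probes were positive on both. Livers C3 and T4 each had 1 array on each slide, so the slides share livers in C and T and are not independent. The median G minus T difference was 0.16 on slide 1 (2 T and 3 G arrays) and 0.33 on slide 2 (3 and 3). On slide 1 this difference was just below 0 for A_55_P1955715 (-0.013) and the Gm14440 probe (-0.025). Between the 2 arrays of liver C3 the member probes differed by a median of 0.052 and at most 0.15, and between the 2 arrays of T4 by 0.11 and at most 0.30 (7 probes measured on both).

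To ask whether the probes track each other beyond the difference between groups, the deviation of each liver from its group mean was correlated between probes. All 28 pairs were positive. Pearson's r was between 0.36 and 0.90 with a median of 0.73 (13 livers). A rank version, rho, was between 0.31 and 0.84 with a median of 0.66. This rho is Pearson's r of the ranked deviations after the group means of the ranks were removed. In an exact two-sided permutation test over livers within groups, 21 of the 28 pairs had an unadjusted p under 0.05 for r and 15 for rho. The p-values for r ran from 0.00027 to 0.238. The pairs are not independent, since all come from the same livers.

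The highest r, 0.90, was that of the 2 side by side probes of Gm14326, which share 29 bases, and of A_55_P1996087 with the Gm14391 probe, which share 17. Pairs with little shared sequence were among the higher ones too. The Gm14435 probe, which shares at most 7 bases with any other, had an r of 0.87 with the Gm14391 probe and 0.84 with A_55_P1955715. The 4 pairs with a shared run of at least 12 bases had a median r of 0.89, and the 24 others of 0.72. A short shared run does not mean that 2 probes bind different transcripts. A_55_P1955715 and A_51_P283292 share 6 bases, and both are listed for Gm14326 and OTTMUSG00000016609. The split by shared run therefore cannot tell shared signal from separate transcripts that move together. Probes of different genes (18 pairs, median r 0.74) followed each other as closely as the probes of Gm14326 among themselves (10 pairs, median 0.68), a comparison with no test. All member probes near the background are of Gm14326, and some probes of different genes are listed for the same transcript. The comparison therefore mixes gene, signal level and target. The 7 pairs with A_51_P283292 had the lowest values (0.36 to 0.66).

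The tracking rests in part on 2 livers. When G5 and T4, the livers farthest from the median, were left out, the deviations were still taken from group means that held them. So computed, r fell to a median of 0.44 and ranged from 0.0085 to 0.75. The remaining T and G livers then keep a shared offset from their group means, which can raise r. Whether all pairs stay positive with new group means was not tested. A shared gain or loss of signal of a whole array would also move the probes together, and its part was not tested.

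**Figure D4:**
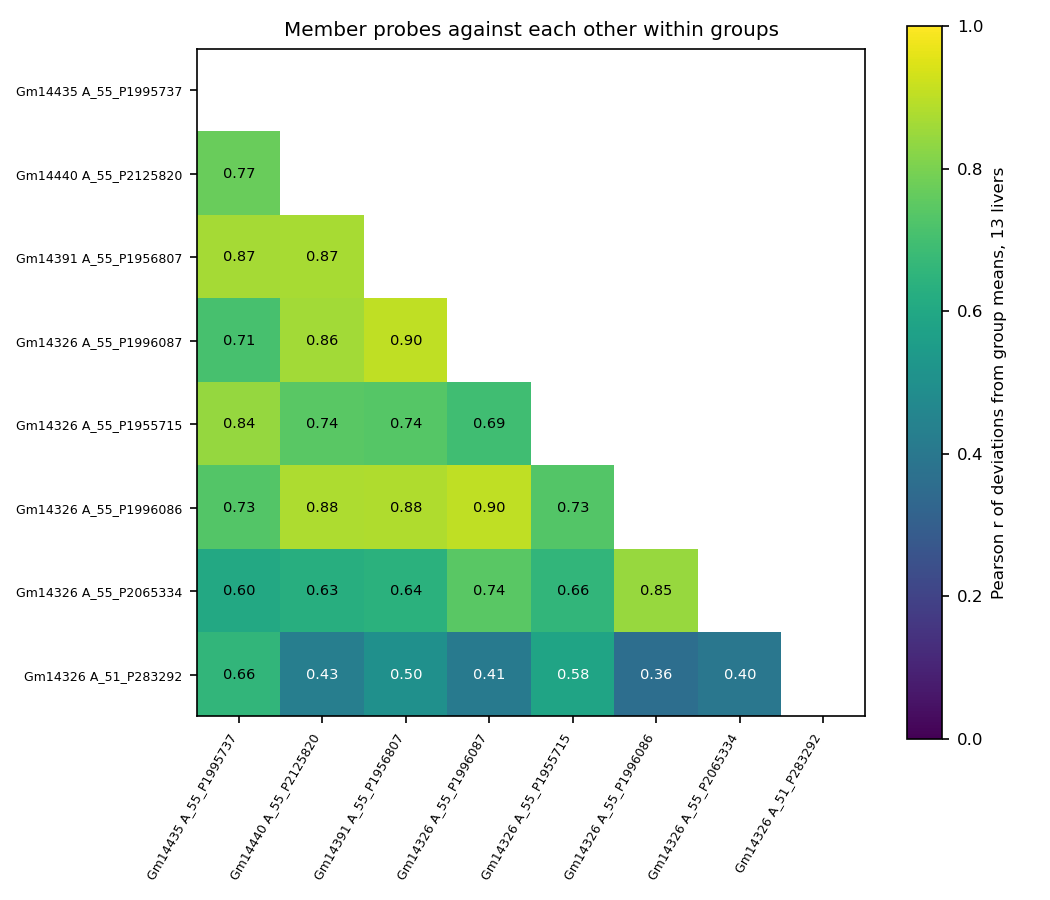
Pearson r between member probes over 13 livers after the group means were removed. Each cell is 1 of 28 pairs, and lighter cells are higher. The row of A_51_P283292 holds the lowest values, and the pairs of A_55_P1996087, A_55_P1996086 and the Gm14391 probe the highest.

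The probes around the members asked whether the 4 genes stand alone. Within 1 Mb of the outermost member probes (chr2:174108805-178680714), 160 other probes were measured, of which 107 were for lincRNAs (long intergenic noncoding RNAs). In G against C, 9 of the 160 passed an adjusted p of 0.05, or 5.62%, beside 0.122% of all probes, and all 9 were higher in G. In T against C 2 passed, or 1.25%, the same share as over all probes. They were 1 lincRNA probe that was higher in T and 1 probe of Gnas, a G protein gene outside the cluster, that was lower. In G against T none passed in limma, beside 23 of all probes, while 20 (12.5%) had an unadjusted p under 0.05, beside 5010 of all 55681 probes. The 16 probes of genes named Gm142, Gm143 or Gm144 that lie elsewhere had none past the threshold in any comparison, with 3 at an unadjusted p under 0.05 in T against C and 1 in each of the others.

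Zinc finger genes made up most of the calls outside the lincRNAs. The probe of LOC664987, now Gm14393 and a KRAB zinc finger gene by its annotation (chr2:174887050-174887109), was 7.85 ± 0.24 in C, 8.67 ± 0.38 in T and 9.33 ± 0.44 in G. Its G minus C difference was 1.49 (SE 0.25, adjusted p 0.0425 in limma). Gm14431, now Zfp967 (chr2:175208144-175208203), was 6.93 ± 0.07 in C, 7.51 ± 0.20 in T and 8.01 ± 0.36 in G, with a G minus C difference of 1.08 (SE 0.18, adjusted p 0.0416). For both, all DEN livers were above all C livers.

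LOC628239, annotated as similar to zinc finger protein 120 (chr2:176910605-176910664), was higher in G than in C by 1.06 on the log2 scale (SE 0.16, adjusted p 0.0399 in limma, 5 of 6 G livers measured). The KRAB zinc finger transcript ENSMUST00000108941 (chr2:177504998-177505057) was higher by 0.92 (SE 0.15, adjusted p 0.0403), and OTTMUSG00000016609 (chr2:176083038-176083097), a predicted gene whose probe was above background on 2 of the 4 C arrays, by 1.10 (SE 0.18, adjusted p 0.0413). The probe of OTTMUSG00000016609 shared at most 7 bases with a member probe, but its transcript is listed for 2 of the member probes, as given above. The probe of LOC628239 shared 29, that of ENSMUST00000108941 21, Gm14431 18 and LOC664987 15. Of the 9 called probes, 4 shared a run of 12 or more bases with a member probe, and of the 151 not called, 15.

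The other 4 calls were lincRNA probes. The probe A_30_P01028205 at chr2:175662374-175662433 was not well above background on any C array and was so on all T and G arrays. It was at least 1.70-fold higher in T than in C (adjusted p 0.0413 in limma) and at least 2.07-fold higher in G (adjusted p 0.0373). The bound takes the mean of the bright group over the weakest signal still called above background on the C arrays, or over the probe's own signal there where that is higher. A_30_P01029117 at chr2:175140766-175140825 was at least 2.38-fold higher in G than in C (adjusted p 0.0425), again with no C array above background. Of the 2 probes of 1 lincRNA near chr2:174945942, A_30_P01026482 was at least 2.04-fold higher in G (adjusted p 0.0425) and A_30_P01032435, which was above background on 1 of the 4 C arrays and on all T and G arrays, was called higher in G (adjusted p 0.0399). Among the 107 lincRNA probes, the 4 calls were among the 9 that were above background on 10 or more arrays, and none was among the other 98. Most arrays are of T and G, so a probe that is low in C and high in DEN livers passes this cut through them. Nothing is therefore read from the split. Of the 98, 11 had an unadjusted p under 0.05 in limma in G against C, or 11.2%, beside 11.4% of all probes.

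The Gnas probe A_55_P2081318 was above background on no T array and on 2 of the 4 C arrays, and was called lower in T, where C was at least 1.32-fold higher (adjusted p 0.0379 in limma).

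Between the outermost member probes, 12 other probes were above background on all 15 arrays. All 12 had a positive T minus C difference (median 0.45) and a positive G minus C difference (median 0.65), and 3 of the 12 passed in G against C, beside 0.403% of the 13155 probes above background on all arrays. The 9 such probes of the flank before the first member had a median G minus C difference of 0.025, with 1 call, LOC664987. Another KRAB zinc finger transcript there, ENSMUST00000109061, was higher by 1.13 (adjusted p 0.0706 in limma). The others, of Gnas, Th1l, Ctsz, Atp5e, Slmo2 and Gm14439, lay between -0.37 and 0.16. Beyond the last member the only such probe, of Zfp931, was higher by 0.69 (adjusted p 0.134). The positions of the member probes thus do not mark where the differences end. The sets of 12 and 9 were not tested against each other.

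The calls of single probes in the region were close to the threshold. The count of 9 in G against C fell to 0 without any 1 of the livers C1, G2, G3, G4 and T3, to 1 without C2 or G1 and to 4 without T4, and rose to 12 without G6. It was 3 with Agilent's processed signal, and 0 with median scaling or cyclic loess. The count of 2 in T against C fell to 0 without C1, C2, C3, T3 or T4, to 1 without G1, G4, T1 or T2, and rose to 6 without G5 or G6.

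**Figure D5:**
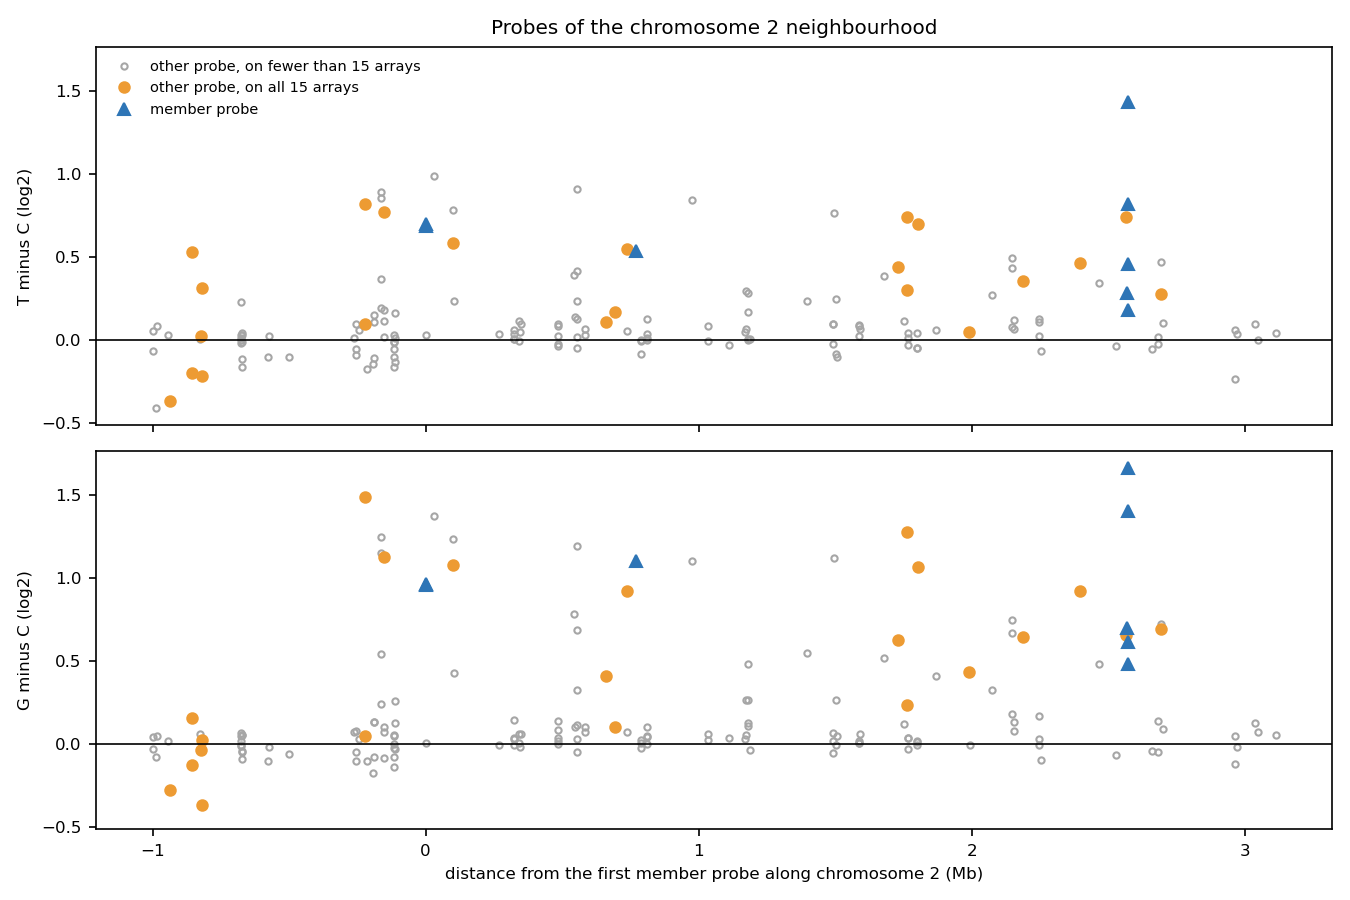
Log2 differences of the probes of the region against their distance in Mb from the first member probe, for T minus C (top) and G minus C (bottom). Triangles are the 8 member probes, filled circles the 22 other probes above background on all 15 arrays and open circles the rest. Filled circles between the members lie above 0 in both panels, while those near -1 Mb lie on both sides of 0.

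The members also resemble each other in the DNA before their start sites. The table of RefSeq promoters (GRCm38.p6) holds 3 of the 4 genes, all but Gm14435. The 250 bases before the start are shown for Gm14391, at chr2:175206925-175207174 on the minus strand, and for Gm14440, at chr2:175274875-175275124 on the plus strand, because they show how much the members share where transcription begins. The letters CCAAT and their reverse complement ATTGG are in capitals.
Gm14391: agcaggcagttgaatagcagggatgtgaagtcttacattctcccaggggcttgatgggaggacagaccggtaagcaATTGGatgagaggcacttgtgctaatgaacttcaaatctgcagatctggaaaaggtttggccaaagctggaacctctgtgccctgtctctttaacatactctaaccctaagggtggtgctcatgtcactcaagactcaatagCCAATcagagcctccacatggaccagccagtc
Gm14440: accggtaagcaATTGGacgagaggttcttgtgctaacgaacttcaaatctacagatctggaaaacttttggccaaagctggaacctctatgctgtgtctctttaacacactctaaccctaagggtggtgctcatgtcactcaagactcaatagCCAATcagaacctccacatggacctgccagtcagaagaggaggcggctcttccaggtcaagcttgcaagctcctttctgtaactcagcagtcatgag
The table's windows are 300 bases long, the 250 shown and 50 after the start, and these whole windows were aligned without gaps. Those of Gm14391 and Gm14440 were identical at 94.5% of 235 bases. That of Gm14326 was identical to Gm14391 at 99.2% of 237 bases, with 2 differences, and to Gm14440 at 94.6% of 298 bases. Each of the 3 holds CCAAT once on each strand. Of all 32851 promoters of 250 bases, 33.8% hold these letters on either strand or on both. That is a wider case, and the share with the letters on both strands was not counted. Of 32 other genes with a promoter in this stretch of chromosome 2, 21 had one that was at least 90% identical to a member's. A match of letters is a description and not a binding site.

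The genes most like the members over the 13 livers were sought among all others. Among 11017 other gene probes above background on all arrays, 16 of which lie in the region, 6 of the 8 with the highest r to the mean of the 8 centred member probes were from there, and 7 of the highest 20. The 6 were ENSMUST00000108941 (r 0.97), Gm14431 (0.96), ENSMUST00000108969 (0.95), LOC664987 (0.94), LOC100504146 (0.92) and Zfp931 (0.88), most of them annotated as zinc finger genes. The other 2 were Nadsyn1, an enzyme of NAD synthesis on chromosome 7 (0.90), and Pcsk4, a proprotein convertase on chromosome 10 (0.89). These r hold the difference between groups. With the group means removed they were 0.89, 0.85, 0.85, 0.79, 0.74 and 0.74 for the 6 of the region, 0.62 for Nadsyn1 and 0.69 for Pcsk4. In the same order, the probes of the 6 shared a run of 21, 18, 19, 15, 33 and 26 bases with a member probe. They may thus take up some of the same RNA, and its part in these r was not tested.

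The partners of KRAB proteins and the genes named Zfp gave the wider setting. Of 19 corepressor genes fixed as a list, 18 were on the array with 27 probes, among them Trim28, which KRAB boxes bind, Setdb1, a histone methyltransferase that Trim28 brings in, and the heterochromatin proteins Cbx1, Cbx3 and Cbx5. None of the 27 probes passed in limma in any comparison. At an unadjusted p under 0.05 there were 5 (18.5%) in T against C, 4 (14.8%) in G against C and 2 (7.41%) in G against T. Over all 55681 probes the shares were 17.7%, 11.4% and 9.0%. The median log2 difference over the 27 was 0.08 for T minus C and 0.04 for G minus C. The 541 probes for 359 genes named Zfp with a number include some of the region, such as those of Zfp931. Of the 541, 5 passed in T against C (4 higher in T), or 0.924% beside 1.25% of all probes. None passed in limma in G against T or G against C, beside 0.0413% and 0.122%, where unadjusted p-values under 0.05 were held by 44 (8.13%) and 71 (13.1%). Their median difference was 0.05 for T minus C and 0.03 for G minus C, beside 0.0018 and -0.0047 over all probes.

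Markers of liver cells were examined beside the members. In T against C, 1 of 8 hepatocyte probes passed (Ttr, lower in T by 1.00 on the log2 scale, adjusted p 0.00829 in limma). Of 6 macrophage probes 1 passed (Emr1, higher by 0.46, adjusted p 0.0163 in limma, above background on 13 arrays). Among the other hepatocyte probes, T minus C was 0.55 for Apoa1, 0.37 for Hnf4a, and 0.30 and 0.13 for Serpina1a. It was -0.36 for Alb, and -0.56 and -0.42 for Cyp2e1. Among the other macrophage probes, T minus C was 0.83 for Marco, 0.53 for Vsig4 and 0.15 for the other Emr1 probe. It was -0.06 for Clec4f and -0.25 for Cd68. Neither list thus moved in 1 direction. No probe of the cholangiocyte, lymphocyte, endothelial, stellate, pancreas or germ cell lists passed in any comparison, and none of any list passed in G against T or G against C. The 2 calls are 4.44% of the 45 marker probes, beside 1.25% of all probes. At an unadjusted p under 0.05 there were 20 (44.4%) in T against C, 11 (24.4%) in G against C and 8 (17.8%) in G against T, each above the share of all probes (17.7%, 11.4% and 9.0%). The mean of the macrophage probes was 7.02 to 7.35 in the C livers, 7.36 to 7.62 in T and 7.27 to 7.68 in G. That of the hepatocyte probes was 16.11 to 16.17 in C, 15.81 to 16.18 in T and 15.93 to 16.13 in G. Their part in the result was not tested.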

How the data were processed

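RNA of the livers (100 ng labelled per array) was hybridised to 15 single-colour arrays. The authors deposited, for every spot, its intensity and that of the local background as read by Feature Extraction 10.7.3.1, with flags for spots above background or outlying, and a table of log2 values after normexp and quantile normalization.

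The values were rebuilt from the deposited intensity in R 4.3.3 with limma 3.58.1, with tables handled by the data.table package, version 1.17.8. Mean signal and median background went through normexp with an offset of 50, then log2, then quantile normalization over 59305 spots that are not controls. Flagged spots were set to missing and spots of a probe were averaged. Against the authors' log2 table, 99.2% of values lay within 0.05. Arrays with 1 RNA code were averaged, as they differed less (SD of log2 differences 0.197 in C and 0.200 in T) than the next closest pair of their group (0.346 and 0.252). The 3 groups were fitted in 1 limma model (lmFit, eBayes) without batch terms and p-values were adjusted by Benjamini-Hochberg over 55681 probes. Probes were not merged into genes. Permutation tests, shared runs and promoter identities were computed in Python 3.11.15 with numpy 2.4.6 and pandas 2.3.3. The fit was checked on simulated data.

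The members and lists were chosen with earlier results of these data known. Named were all member probes, up to 12 probes of the region past the threshold in any comparison, the 8 probes most alike over the livers, and the corepressors and markers that passed. Precision is set by how many livers there were, and no label says more of their origin, so p-values measure the spread between these samples. Tried alternatives were the 15 arrays taken apart, 4 other scalings or value tables, a filter on dim probes, flagged spots kept, slide or replicate number in the model, the methods' t-test for counts of calls, and leaving out each liver.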

Additional observations from a re-analysis of the deposited data

Results flagged for a closer look

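Of the 16 groups of livers examined (8 member probes in T and in G), 3 had a liver far from the rest, all of them liver G5 of group G, which was the highest. By Dixon's ratio, the gap from G5 to the next liver over the whole range of the group was 0.715 for the Gm14326 probe A_55_P1996087, 0.672 for the Gm14326 probe A_55_P1996086 and 0.701 for the Gm14391 probe A_55_P1956807, above Dixon's critical value at the 95% level for 6 livers. The first of these read 11.27 in G5 and 10.40 in the next G liver. Chance flags about 1 in 20 groups. The 3 probes share sequence, so the flags are not independent. The array of G5 had the most spots flagged as outliers (3692), none of them a spot of these 3 probes.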

How the results depend on the processing

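All single member differences kept their sign under every alternative run (176 values in each of the 3 comparisons), and of the 528 values 25 moved by 1 SD of the livers or more. The median member difference rose in T against C to 1.00 with Agilent's processed signal and 1.21 with median scaling, and in G against C to 1.49 and 1.57. Leaving out 1 liver gave 0.50 to 0.69 for T against C, 0.20 to 0.41 for G against T and 0.86 to 1.04 for G against C, and a median r between member probes of 0.62 to 0.75.

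The counts of calls depended on the setting far more, and the cause was not tested. Given first for T against C, next for G against T and last for G against C, the counts over all probes were 3298, 193 and 352 with the 15 arrays taken as separate livers, 56, 3 and 3 with Agilent's processed signal, 3071, 6 and 0 with median scaling, and 167, 38 and 1 with cyclic loess. With slide in the model they were 1455, 83 and 207, and with the methods' t-test 0, 0 and 1 after adjustment (8352, 4963 and 4843 at an unadjusted p under 0.05). At an unadjusted p under 0.05 the t-test gave 3 of the 8 member probes in G against T, 17 of the 160 neighbours there, 3, 2 and 3 of the 27 corepressor probes, and 11, 7 and 9 of the 45 marker probes. With the filter on dim probes G against T had 79 and G against C 172 calls. Leaving out 1 liver gave 70 to 1042, 3 to 117 and 9 to 446. The lowest came without T3, without G2, G3, G5 or T2, and without G2, and the highest without G6, T1 and C3.

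Among the neighbours, the counts for T against C and G against C were 19 and 17 with separate arrays, 8 and 16 with the filter on dim probes, 8 and 15 with slide in the model, 0 and 0 with cyclic loess or the t-test, and 7 and 0 with median scaling, and G against C had 3 with the processed signal. Leaving out 1 liver gave 0 to 6 and 0 to 12, and 0 in G against T throughout. The number of livers limits the precision, and 3 of the member probes were not above background on every array.

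Replicate numbers are shared by the groups but stand for different mice. Deviations of same-numbered arrays correlated between -0.36 and 0.36 (13 pairs, 11540 probes), and 2 of 15 arrays correlated best with their own number, so the numbers were not taken as a pairing. With the replicate number as a block over 15 arrays, the calls were 2740, 129 and 364 over all probes, and 14 and 24 among the neighbours in T against C and G against C, with none in G against T. The median member difference was then 0.56, 0.27 and 0.94.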
